A study of Mus musculus with 4 samples.

Results

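Interferon-stimulated genes (ISGs) were followed through the cells of the mouse lung after endothelial deletion of ERG. The 44 ISGs are a fixed list. No measured value entered the rule, but the list was drawn up with earlier results of these data known. All 44 had a row among the 20076 gene rows of the counts matrix. They were read singly and summed, in each cell type and in each subtype of endothelial cells (ECs). Single-cell RNA-seq was performed on whole lung, with 1 library from each of 4 mice. The 2 libraries labelled WT came from ERG fl/fl mice without Cre, and the 2 libraries labelled ERG CKO from CDH5-CreER(T):ERG fl/fl mice, so that the floxed alleles were shared by all 4 and the Cre, driven from a Cdh5 promoter active in ECs, was carried by ERG CKO alone. All 4 mice received 5 daily injections of 0.5 mg tamoxifen, and lungs were taken 90 days after the last one. There was no group with the Cre and without the floxed alleles, so an effect of the recombinase and an effect of ERG loss cannot be told apart.

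The libraries held 2264 and 2150 cells (WT replicates 1 and 2) and 3097 and 1852 cells (ERG CKO replicates 1 and 2), with 11263911 to 18646776 UMIs each (unique molecular identifiers, of which each stands for a single RNA molecule caught in a droplet) and medians of 4611 to 4899 UMIs per cell. Replicate 1 of both groups expressed Xist and replicate 2 of both groups expressed Ddx3y, so that sex was balanced between the groups. Scrublet called 60 of 9363 cells (0.641%) doublets, which were kept, and 7 barcode sequences, belonging to 14 cells, stood in more than 1 library. Cell types were rebuilt by clustering, and every name below means "like" that cell type by its markers. All 44 ISGs were left out of the genes used for clustering, so clusters were not made from them. The matrix holds 1 count per gene, which cannot separate the deleted part of Erg from the rest of its transcript and so checks nothing about the deletion. Erg stood at 85.6 and 88.1 CPM in WT ECs and at 104 and 82.0 CPM in ERG CKO ECs (log2 fold change 0.07, SE 0.15, adjusted p = 0.884).

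Interferons are secreted proteins that warn cells of infection. Type I interferons signal through the IFNAR receptor and JAK kinases to a complex that includes STAT2 and IRF9 and binds interferon-stimulated response elements (ISREs), whereas interferon gamma signals through its own receptor to gamma-activated sites (GAS). The genes switched on this way encode inhibitors of viral replication, GTPases that attack the vacuoles of intracellular pathogens, the immunoproteasome and transcription factors that carry the response further. ERG is an ETS-family factor that keeps ECs quiescent and holds back inflammatory genes in cultured endothelium.

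The sequence in front of the genes shows how tightly the members share these elements. RefSeq promoter sequences of build GRCm38.p6 were held for 34 of the 44 members and covered 250 bases upstream of the gene start. No entry was held for Gbp4, Gbp6, Gm4951, Ifi27l2a, Iigp1, Mx1, Parp14, Rtp4, Usp18 and Zbp1. An ISRE, taken as GAAA, any 2 bases and GAAA again and searched on both strands, occurred in 17 of 34 members (50%) and in 936 of 27025 promoters of all genes (3.46%). The GAS letters TTCNNNGAA, searched in the same way, occurred in 10 members (29.4%) and in 8.13% of all promoters. An ETS motif spelled CAGGAAG occurred in 3 members (8.82%) and in 12.1% of all promoters. The stretches below surround the motif of members to which the values return, each read 5′ to 3′ along the strand of its gene, with the motif in capitals. Where TTTC stands in place of GAAA, the ISRE lies on the opposite strand.
Irgm1, chr11:48871421-48871474, minus strand: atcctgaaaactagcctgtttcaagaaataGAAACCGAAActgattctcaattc
Igtp, chr11:58199492-58199555, plus strand: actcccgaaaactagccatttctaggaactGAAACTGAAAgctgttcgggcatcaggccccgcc
Irgm2, chr11:58214883-58214952, plus strand: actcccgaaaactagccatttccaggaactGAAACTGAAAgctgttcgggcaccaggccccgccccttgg
Gbp2, chr3:142620574-142620643, plus strand: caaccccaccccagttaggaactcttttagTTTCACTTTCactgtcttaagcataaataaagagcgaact
Gbp7, chr3:142530253-142530322, plus strand: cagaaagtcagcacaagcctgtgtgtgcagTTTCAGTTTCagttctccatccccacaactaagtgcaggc
Isg15, chr4:156200845-156200914, minus strand: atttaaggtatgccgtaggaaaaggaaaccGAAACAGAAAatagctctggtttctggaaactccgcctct
Ifit1, chr19:34640774-34640843, plus strand: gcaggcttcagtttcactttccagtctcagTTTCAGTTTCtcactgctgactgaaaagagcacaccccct
Irf1, chr11:53769894-53769962, plus strand: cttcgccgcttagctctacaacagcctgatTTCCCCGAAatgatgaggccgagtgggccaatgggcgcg
The stretch of Irf1 carries a GAS and the other 7 an ISRE, and the motif began between 24 bases (Irgm1) and 90 bases (Irf1) ahead of the gene start. Igtp and Irgm2, neighbours on chromosome 11, differed at 2 of 64 bases compared. The same stretch of Ifit3 and Ifit3b on chromosome 19 was identical over all 70 bases.

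In ECs the members did not move together. Of the 43 members that passed the low-count filter, 1 rose and 2 fell in ERG CKO. Ifi27l2a, a small interferon-induced protein of the mitochondrial membrane, rose by 3.97 on the log2 scale, and Irgm1 and Igtp, immunity-related GTPases (IRGs) that act on pathogen vacuoles and autophagy, each had a log2 fold change of -1.0. The other tested members did not pass the test, and over all 43 the log2 fold change was below 0 in 28 and above 0 in 15. Calls rest on edgeR's quasi-likelihood test of UMI counts summed per mouse, with Benjamini-Hochberg adjustment over all 10692 genes tested. Of all those genes 3.01% were called, 1.81% higher and 1.2% lower. Calls below are without a block on the replicate number, which the labels do not say marks pairs. With that block 3 members were called higher and 16 lower in ECs, and 1251 genes were called in place of 322.

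Ifi27l2a was counted with 55 and 39 UMIs in the ECs of WT replicates 1 and 2 and with 1535 and 492 UMIs in those of ERG CKO. These counts correspond to 20.5 and 12.3 CPM (counts per 1000000 of all EC UMIs of the library) in WT and to 336 and 182 CPM in ERG CKO. Both ERG CKO libraries lay far above both WT libraries (log2 fold change 3.97, SE 0.36, adjusted p = 0.00689), and the call held under all 15 alternatives run, with values from 3.42 to 4.66 and adjusted p of at most 0.0422.

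Irgm1 stood at 186 and 206 CPM in WT and at 114 and 85.3 CPM in ERG CKO (log2 fold change -1.0, SE 0.17, adjusted p = 0.0269). Igtp, also known as Irgm3, stood at 124 and 136 CPM in WT and at 75.8 and 56.0 CPM in ERG CKO (log2 fold change -1.0, SE 0.17, adjusted p = 0.0275). For both genes the groups did not overlap and ERG CKO replicate 2 was the lowest library. With WT replicate 1 left out the adjusted p of both was 0.115, and with WT replicate 2 left out it was 0.154. In those fits the remaining WT library was assumed to vary like the ERG CKO pair.

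**Figure D1:**
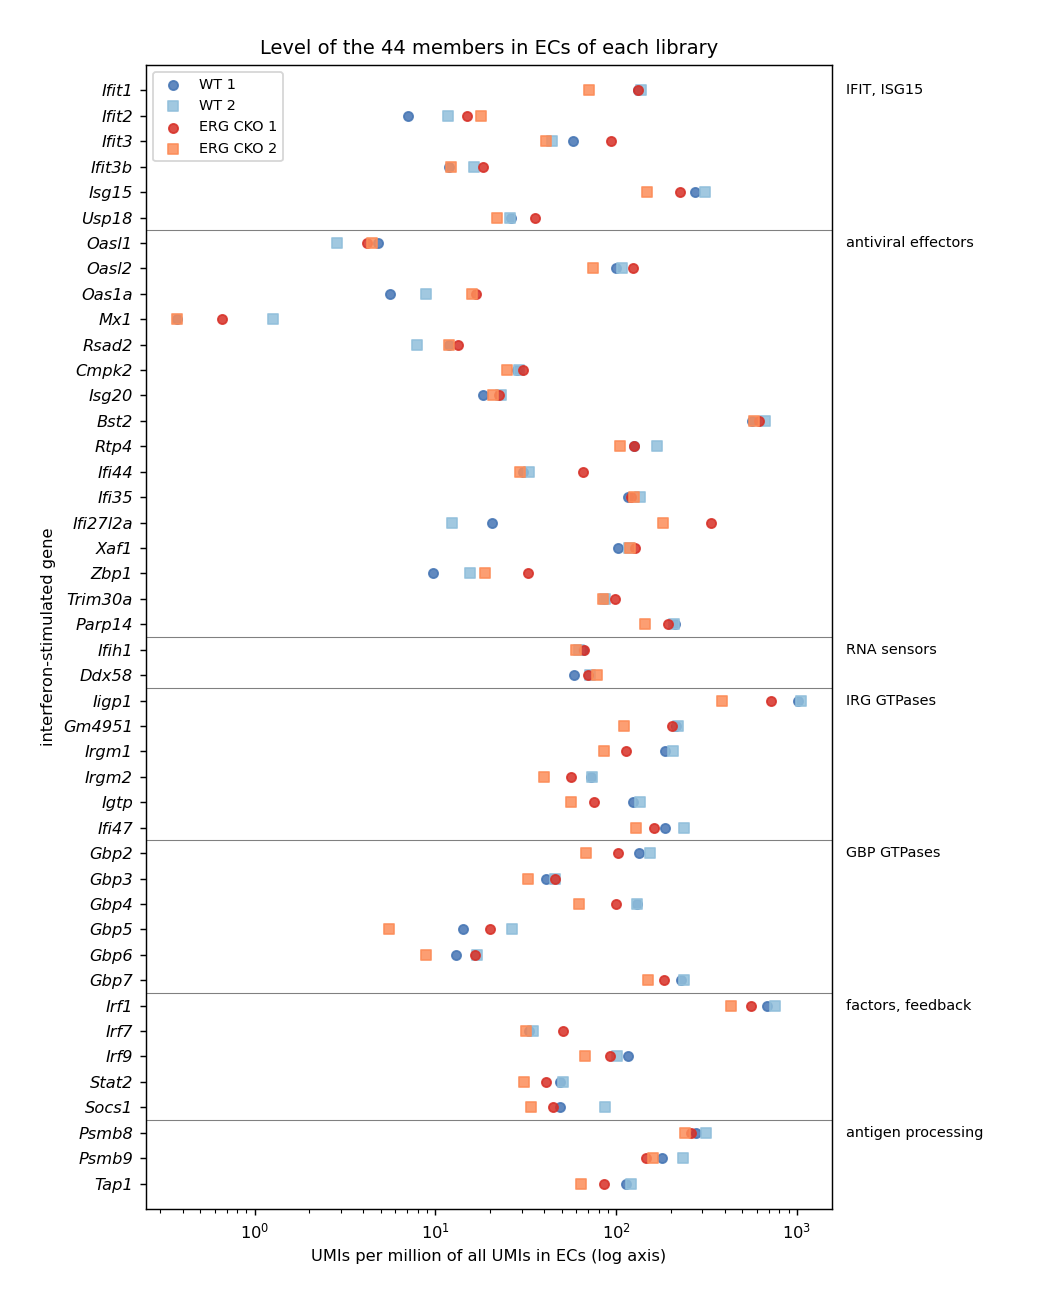
Level of each ISG in the ECs of each library, in UMIs per 1000000 of all EC UMIs on a log axis, grouped by role, with 1 point per library (WT blue, ERG CKO red or orange, replicate 1 circles, replicate 2 squares). The ERG CKO points of Ifi27l2a, at 336 and 182, lie above its WT points at 20.5 and 12.3, and all 6 IRG GTPases have both ERG CKO points below both WT points.

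The IRG family was the group with the lowest median change. All 6 IRG members had log2 fold changes below 0, from -1.0 to -0.48 with a median of -0.77, and in all 6 both ERG CKO libraries lay below both WT libraries, an arrangement found in 19.4% of all genes tested. Of the 6, 2 passed the test and 5 had an unadjusted p under 0.05. Counts at this unadjusted limit, here and below, were not set against the share of all genes and are not read as a result. Iigp1, the member with the most UMIs in WT ECs, encodes a GTPase that loads onto the vacuole of Toxoplasma. It had 1013 and 1051 CPM in WT and 723 and 384 CPM in ERG CKO, with no overlap between groups but a spread within ERG CKO that left it short of the threshold (log2 fold change -0.93, SE 0.27, adjusted p = 0.134). Gm4951, a close relative of Iigp1, had 214 and 220 CPM in WT and 204 and 111 CPM in ERG CKO. Irgm2 and Ifi47 completed the family, with log2 fold changes of -0.62 and -0.58 and neither passing the test. Summed over the 6 genes the level was 1796 and 1923 CPM in WT and 1335 and 805 CPM in ERG CKO.

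Guanylate-binding proteins (GBPs), larger interferon-induced GTPases that coat intracellular bacteria and parasites, gave the same sign without a call. All 6 log2 fold changes were below 0 (median -0.56), 3 of the 6 had non-overlapping groups, 3 had an unadjusted p under 0.05, and neither edgeR nor DESeq2 called any. Gbp2 came nearest, at 134 and 154 CPM in WT and 103 and 68.2 CPM in ERG CKO (log2 fold change -0.78, adjusted p = 0.0976). Gbp5, a GBP that promotes inflammasome assembly, overlapped between groups at 14.1 and 26.5 CPM in WT and 20.2 and 5.56 CPM in ERG CKO.

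Among the transcription factors and feedback genes, Irf1 had the most UMIs. IRF1, whose gene carries the GAS printed above, drives Gbp and immunoproteasome genes in turn. Irf1 stood at 686 and 755 CPM in WT and at 556 and 429 CPM in ERG CKO (log2 fold change -0.58, SE 0.16, adjusted p = 0.118). Socs1, which shuts off JAK signalling, had 49.1 and 86.5 CPM in WT and 44.9 and 33.8 CPM in ERG CKO. Irf9 and Stat2, both parts of the ISRE-binding complex, had log2 fold changes of -0.46 and -0.49. Irf7, which amplifies type I interferon, overlapped between groups at 33.1 and 34.7 CPM in WT and 50.6 and 31.9 CPM in ERG CKO. In 4 of these 5 genes both ERG CKO libraries lay below both WT libraries and the unadjusted p was under 0.05, yet neither edgeR nor DESeq2 called any.

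The 3 antigen-processing members all lay lower in both ERG CKO libraries without a call by edgeR or DESeq2, and 2 had an unadjusted p under 0.05. Tap1, a subunit of the transporter that feeds peptides to MHC class I, had 114 and 121 CPM in WT and 85.7 and 64.2 CPM in ERG CKO (log2 fold change -0.67, adjusted p = 0.0854). Psmb8 and Psmb9, subunits of the immunoproteasome, had log2 fold changes of -0.28 and -0.47. Psmb8, one of the 5 members of highest level in ECs, had 276 and 313 CPM in WT and 259 and 240 CPM in ERG CKO.

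The classical antiviral genes showed no common direction. In the group of Ifit genes, Isg15 and Usp18 the median log2 fold change was 0.12 and no gene was called by edgeR or DESeq2, with 2 of 6 at an unadjusted p under 0.05. Isg15, a ubiquitin-like modifier, had 272 and 308 CPM in WT and 224 and 148 CPM in ERG CKO (log2 fold change -0.67, adjusted p = 0.149). Ifit1, an RNA-binding inhibitor of translation, had 132 and 138 CPM in WT and 132 and 71.2 CPM in ERG CKO, so that 1 library alone was low. Ifit3 had 57.7 and 43.9 CPM in WT and 94.0 and 41.2 CPM in ERG CKO, and there 1 library alone was high. A total of 51.2% of the 50-base windows of Ifit3 transcripts also occur in another gene, chiefly Ifit3b, so counts of the pair are uncertain.

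Of the 15 antiviral effectors tested, Ifi27l2a alone was called, by edgeR and by DESeq2. The median log2 fold change of these effectors was 0.05, and 9 values lay above 0. Bst2, the tetherin that holds budding virions at the membrane, stayed among the members with the most UMIs at 563 and 666 CPM in WT and 617 and 577 CPM in ERG CKO. Oas1a, which makes the small messenger that starts RNA decay, had 5.58 and 8.84 CPM in WT and 16.9 and 16.0 CPM in ERG CKO (log2 fold change 1.13, SE 0.29, adjusted p = 0.0959), and 57.6% of its windows occur in other Oas1 genes. Zbp1, a sensor of Z-form nucleic acid, had 9.67 and 15.5 CPM in WT and 32.4 and 18.9 CPM in ERG CKO (log2 fold change 1.01, adjusted p = 0.177). Mx1, a transcribed pseudogene in the annotation, had 1 to 4 UMIs per library and was not tested. The RNA sensors Ifih1 (MDA5) and Ddx58 (RIG-I) gave log2 fold changes of -0.04 and 0.14, with no call by either tool and no unadjusted p under 0.05.

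**Figure D2:**
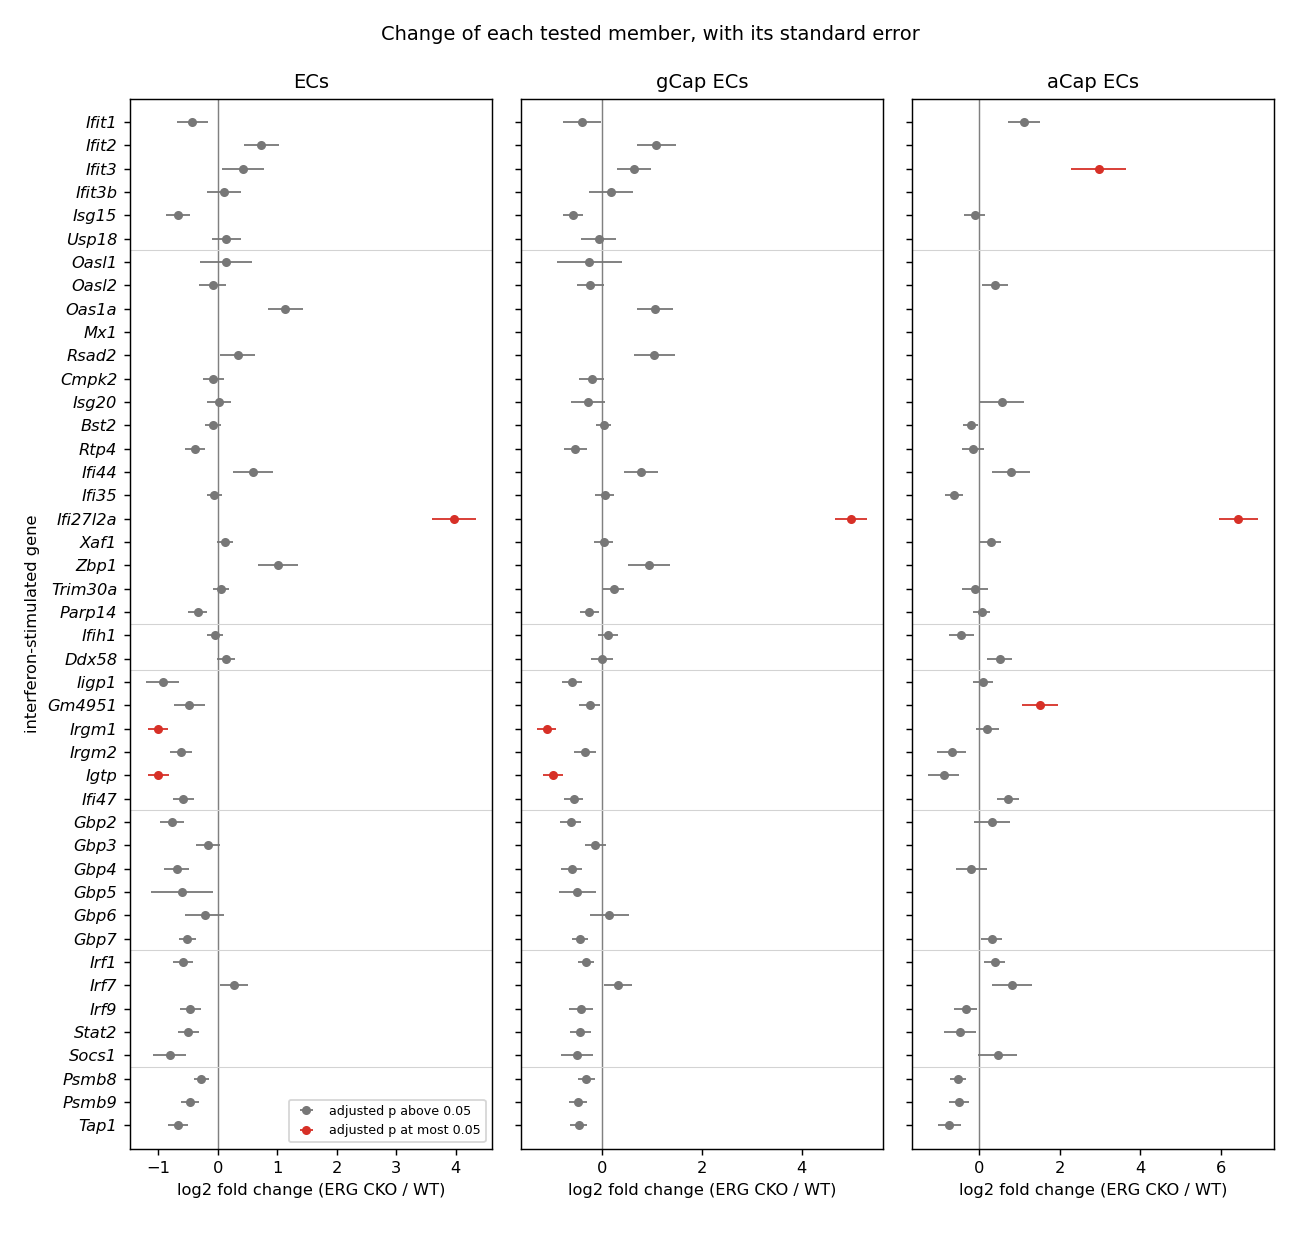
Log2 fold change (ERG CKO minus WT, edgeR) of each tested ISG in ECs, gCap ECs and aCap ECs, with bars of 1 SE and the called members in red, each panel on an axis of its own. Ifi27l2a stands at 3.97, 4.98 and 6.43 in the 3 panels, and all IRG and GBP members lie left of 0 in ECs.

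Over all 43 tested members the median log2 fold change in ECs was -0.22, against 0.01 over all genes tested. Both ERG CKO libraries lay above both WT libraries in 5 members (27.4% of all genes did) and below them in 20 members (19.4% of all genes). The 17 members with an ISRE in the promoter window had a median of -0.49, with 12 below 0, and the 17 with a promoter entry and no ISRE had a median of -0.06, with 10 below 0. The split by GAS was alike, at a median of -0.40 for the 10 with it (7 below 0) and -0.08 for the 24 without it (15 below 0). Ifi27l2a, without a promoter entry, is in none of these sets. Summed over all 44 members, the level was 5920 and 6529 CPM in WT and 5661 and 4180 CPM in ERG CKO, a log2 ratio of -0.34. The difference between the 2 ERG CKO libraries was larger than that between WT replicate 1 and ERG CKO replicate 1. Between the libraries of replicate number 1, which are also the Xist-expressing ones, the log2 ratio of the sums was -0.06 and 21 of 43 members lay below 0. Between those of replicate number 2 it was -0.64 and 35 of 43 lay below 0. The summed list was thus lower in ERG CKO for both numbers, by little between the replicate 1 libraries. With each EC cluster weighted by its share of all ECs, replicate 1 stood at 5718 CPM in WT and 5768 CPM in ERG CKO. Replicate 2 then stood at 6489 CPM in WT and 4787 CPM in ERG CKO. The sign between the replicate 1 libraries thus depended on the mix of EC clusters. Without Ifi27l2a in the unweighted sum the log2 ratios were -0.15 and -0.71. The log2 ratio was 3.97 and 3.78 for Ifi27l2a and -0.70 and -1.26 for Irgm1.

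The number of calls depended on single libraries. Without ERG CKO replicate 1, 1 member was called higher and 18 lower. Without ERG CKO replicate 2, 5 were called higher and 3 lower. With either WT library left out, 1 was called higher and 0 lower. Ifi27l2a was among the members called higher each time.

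EC sums also held RNA of other cells, in different amounts by group. Erythroid markers summed to 35 and 50.2 CPM in WT ECs and to 1559 and 2200 CPM in ERG CKO ECs, with 5 of 5 markers higher in both ERG CKO libraries. Platelet markers summed to 72.2 and 146 CPM in WT and 326 and 210 CPM in ERG CKO, and EC markers to 20205 and 21020 CPM in WT and 16543 and 17475 CPM in ERG CKO. Single cells held most of the erythroid UMIs of the ERG CKO libraries, as 1 cell of replicate 1 (in EC cluster 7) carried 89.4% and 1 cell of replicate 2 (in EC cluster 4, led by haemoglobin and platelet genes) carried 98.7%. In gCap ECs the erythroid sum overlapped, at 34.8 and 49.4 CPM in WT and 164 and 26.3 CPM in ERG CKO. Platelet markers there did not overlap, at 32.2 and 40.5 CPM (WT) against 112 and 74.6 CPM (ERG CKO). Nor did those of classical monocytes, at 7.82 and 10.5 CPM against 13.6 and 21.9 CPM. Neutrophil, non-classical monocyte and fibroblast sums in gCap ECs were also higher in both ERG CKO libraries. Sums of EC, interstitial macrophage, dendritic and mesothelial markers were lower in both. Leaving out the 3 EC clusters without a subtype name apart from cluster 0 left 1 member called higher and 2 lower, the same 3 genes. The summed member level was then 5969 and 6611 CPM in WT and 5967 and 4442 CPM in ERG CKO, a log2 ratio of -0.27.

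Classical monocytes carried the most Ifi27l2a of any cell type, so their markers were counted in ECs. These markers summed to 7.81 and 15.5 CPM in WT ECs and to 28.5 and 37.5 CPM in ERG CKO ECs, with 3 of 7 markers higher in both ERG CKO libraries. At the ratio of Ifi27l2a to marker UMIs found in the monocytes of each library, those markers would bring 10.5 and 29.4 Ifi27l2a UMIs to the WT ECs and 70.8 and 48.2 to the ERG CKO ECs, if that ratio held for RNA found in ECs. Found were 55 and 39 UMIs in WT and 1535 and 492 in ERG CKO. B cell markers gave 32.4 and 9.99 UMIs for the ERG CKO libraries, and fibroblast markers 31.6 and 8.44. Platelet markers gave 20.7 and 3.54 UMIs for them, and T cell markers 3.63 and 7.99. The source of the Ifi27l2a UMIs in ECs was not tested.

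General capillary (gCap) ECs, the largest EC subtype, repeated the calls. There were 285 and 318 such cells in WT and 242 and 157 of them in ERG CKO. They leave out EC cluster 0, which stayed unnamed but was nearest to gCap by its markers, as given below. Of 43 members tested, 1 was higher and 2 lower, against 2.41% and 0.875% of all 9029 genes. Ifi27l2a had 6 and 8 UMIs in WT and 284 and 104 UMIs in ERG CKO, or 5.21 and 6.48 CPM against 227 and 152 CPM (log2 fold change 4.98, SE 0.32, adjusted p = 1.4e-05). It passed the low-count filter in this subtype through ERG CKO, so its call could only be a rise. Irgm1 had 267 and 354 CPM in WT and 159 and 133 CPM in ERG CKO (log2 fold change -1.11, SE 0.19, adjusted p = 0.00791). Igtp had 179 and 191 CPM in WT and 110 and 76.0 CPM in ERG CKO (log2 fold change -0.99, SE 0.20, adjusted p = 0.0178). The groups did not overlap in any of these 3 genes. Over the subtype, 5 members lay higher in both ERG CKO libraries, where 25% of all genes did, and 14 lay lower in both, where 18.7% did. Without alignment of the libraries the gCap calls of Irgm1 and Igtp were lost (adjusted p = 0.425 and 0.429), Irgm1 was lost after thinning all cells to 1000 UMIs (0.141), and Igtp was lost with DESeq2 (0.0592) and at a clustering resolution of 1.2 (0.0825). The number of members called in gCap ECs also moved with single libraries left out, as given below.

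Within gCap ECs, cluster 2 was led by ISGs (Iigp1, Ifit1, Gm4951, Socs1 and Irf1 had the highest fold over other ECs) although none of these genes was used to form it. The cluster held 120 and 127 cells in WT and 104 and 48 cells in ERG CKO. Its summed member level, 11296 and 13372 CPM in WT and 11005 and 8874 CPM in ERG CKO, was the highest of the EC clusters with 10 or more cells in each library. With each cell thinned to 1000 UMIs, members made up a mean of 11.6 and 13.6 UMIs per cell in WT, where all ECs had 6.16 and 6.82, and of 11.0 and 8.60 UMIs per cell in ERG CKO, where all ECs had 5.67 and 4.07. In this cluster 1 member was called higher (0.914% of 6673 genes were) and 1 lower (0.225% of genes). Ifi27l2a had 5.80 and 5.6 CPM in WT and 134 and 148 CPM in ERG CKO (log2 fold change 4.54, SE 0.40), and Irgm1 had 418 and 538 CPM in WT and 233 and 273 CPM in ERG CKO (log2 fold change -0.95, SE 0.21, adjusted p = 0.0392). In this cluster too Ifi27l2a passed the low-count filter through ERG CKO, so its call could only be a rise. In gCap cluster 6, where WT had 0 Ifi27l2a UMIs and ERG CKO 85, the level was at least 9.0-fold higher, taking 3 UMIs over the WT group as the floor.

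**Figure D3:**
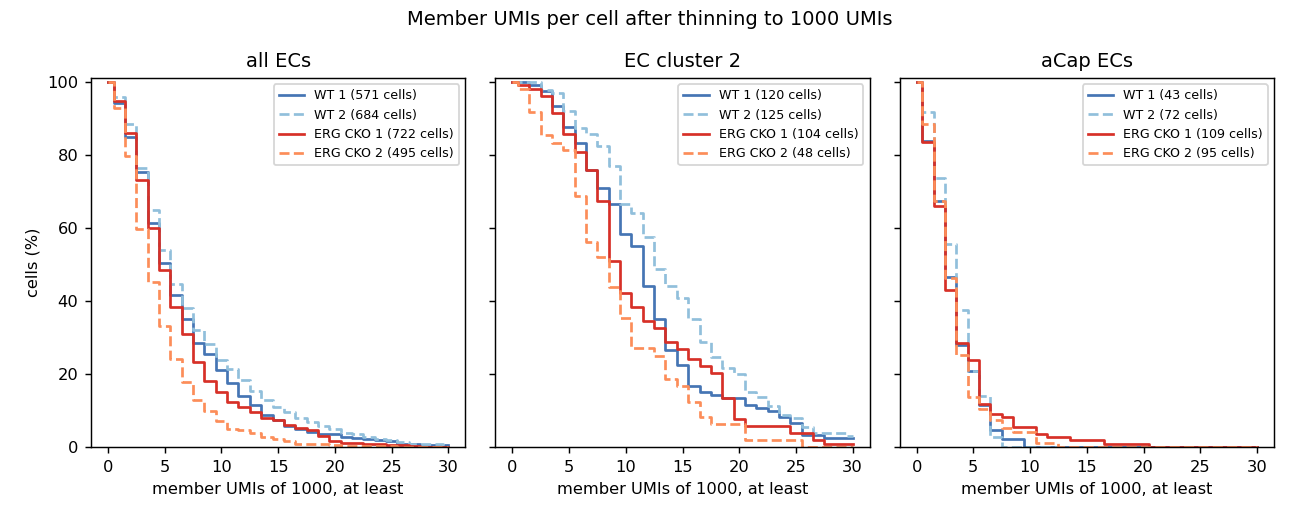
Share of cells (%) with at least a given number of ISG UMIs after each cell was thinned to 1000 UMIs, in all ECs, EC cluster 2 and aCap ECs, with 1 line per library. At 5 UMIs the WT lines of all ECs stand at 50.4% and 53.9% and the ERG CKO lines at 48.5% and 33.1%, and the line of ERG CKO replicate 2 lies lowest over most of the range in all ECs and in cluster 2.

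In WT, 50.4% and 53.9% of ECs had at least 5 member UMIs of 1000, and in ERG CKO 48.5% and 33.1% did, so ERG CKO replicate 1 was near the WT libraries and replicate 2 was the low one at this limit. At a limit of 10 UMIs the WT shares were 21.2% and 24% and the ERG CKO shares 15.2% and 7.27%, and both ERG CKO libraries lay well below both WT libraries. In each library the tenth of ECs with most member UMIs held 30% to 31% of them, so the level was spread over many cells in both groups. Cells with an Ifi27l2a UMI did not carry visibly more of the other members. In ERG CKO replicate 1 the mean was 5.15 other member UMIs of 1000 in ECs with Ifi27l2a and 5.42 in ECs without it, and in replicate 2 it was 4.02 and 3.91.

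Aerocytes (aCap ECs), the thin capillary cells of gas exchange, had low member levels and different calls. There were 43 and 72 such cells in WT and 109 and 95 of them in ERG CKO, and the summed level of 2602 and 3015 CPM in WT and 3347 and 2826 CPM in ERG CKO overlapped. Of 32 members tested, 3 rose and none fell, against 5.35% and 5.76% of all 7011 genes, and 9 members had an unadjusted p under 0.05. The 3 that rose had few UMIs in WT and passed the low-count filter through ERG CKO. A call in them could only be a rise, so this count says nothing about direction. Ifi27l2a had 1 UMI in each WT library and 189 and 96 UMIs in ERG CKO (log2 fold change 6.43, SE 0.48, adjusted p = 1.65e-08), a ratio of 97.5 with a 95% interval of 26.7 to 809 that covers counting error only. Ifit3 had 2 and 1 UMIs in WT and 23 and 14 UMIs in ERG CKO (log2 fold change 2.96, SE 0.68, adjusted p = 0.00482), a ratio of 8.43 with an interval of 2.67 to 42.8. Gm4951 had 5 and 7 UMIs in WT and 25 and 26 UMIs in ERG CKO (log2 fold change 1.51, SE 0.44, adjusted p = 0.0298). The groups did not overlap for these 3 genes, and 8 members in all lay higher in both ERG CKO libraries (26.1% of all genes did) and 7 lower (22.7%).

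The aCap calls other than Ifi27l2a rested on few UMIs. Ifit3 was lost with DESeq2 (adjusted p = 0.222), without WT replicate 2 (0.213) and without ERG CKO replicate 1 (0.133). Gm4951 was lost with DESeq2 (0.591) and without WT replicate 1 (0.0833), WT replicate 2 (0.282) or ERG CKO replicate 2 (0.150). After thinning to 1000 UMIs neither gene was tested, since Ifit3 then had 6 and 2 and Gm4951 4 and 3 UMIs in ERG CKO and both had 0 in WT, and Ifi35 was called lower. The identity of the cells also depended on the alignment, since without it 59 and 106 WT cells but only 8 and 7 ERG CKO cells were named aCap, too few to test. EC markers in aCap ECs summed to 25742 and 25311 CPM in WT and 14982 and 15236 CPM in ERG CKO. Classical monocyte markers there summed to 9.24 and 5.61 CPM in WT and to 17.3 and 1.77 CPM in ERG CKO. Platelet markers had 73.9 and 153 CPM in WT and 390 and 177 CPM in ERG CKO. Interstitial macrophage markers had 3.08 and 3.74 CPM in WT and 43.4 and 8.86 CPM in ERG CKO. Neutrophil and proliferation markers were also higher in both ERG CKO libraries. Those of NK cells, non-classical monocytes, dendritic, epithelial and mesothelial cells were lower in both.

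The change differed between aCap and gCap ECs for 3 of 41 members tested, against 4.36% of all genes, by an interaction test with the mouse as a term. Irgm1 was 1.33 log2 units higher in aCap than in gCap change (SE 0.28, adjusted p = 0.0103), having 67.8 and 76.7 CPM in WT aCap ECs and 103 and 65.6 CPM in ERG CKO aCap ECs. Ifi47 differed by the same amount (1.33, SE 0.28, adjusted p = 0.0103), with 43.1 and 88.0 CPM in WT aCap ECs and 130 and 99.3 CPM in ERG CKO. Gm4951 differed by 1.77 (SE 0.47, adjusted p = 0.0445). With DESeq2 none of the 3 passed, at adjusted p of 0.246 for Irgm1, 0.160 for Ifi47 and 0.169 for Gm4951. Leaving out a library also ended calls. Without WT replicate 2 the adjusted p was 0.150 for Gm4951 and 0.0611 for Irgm1, without ERG CKO replicate 1 it was 0.118 for Irgm1 and 0.0552 for Ifi47, and without ERG CKO replicate 2 it was 0.177 for Gm4951.

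Venous ECs, 32 and 47 cells in WT and 71 and 20 in ERG CKO, had the highest Ifi27l2a level of the tested EC subtypes in both groups. It stood at 129 and 30.6 CPM in WT and at 812 and 290 CPM in ERG CKO, without overlap (log2 fold change 2.88, SE 0.53, adjusted p = 0.0562). edgeR called 0 of the 34 members tested and 0.0613% of all genes there, and 7 members had an unadjusted p under 0.05. Arterial ECs (5 to 10 cells per library) and lymphatic ECs (3 to 8) were too few for a test. In EC cluster 0, which stayed unnamed and was led by Cxcl12, Hey1 and Sema3g, Ifi27l2a had 3 UMIs in WT and 136 in ERG CKO, a ratio of 36.5 (interval 12.2 to 179).

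**Figure D4:**
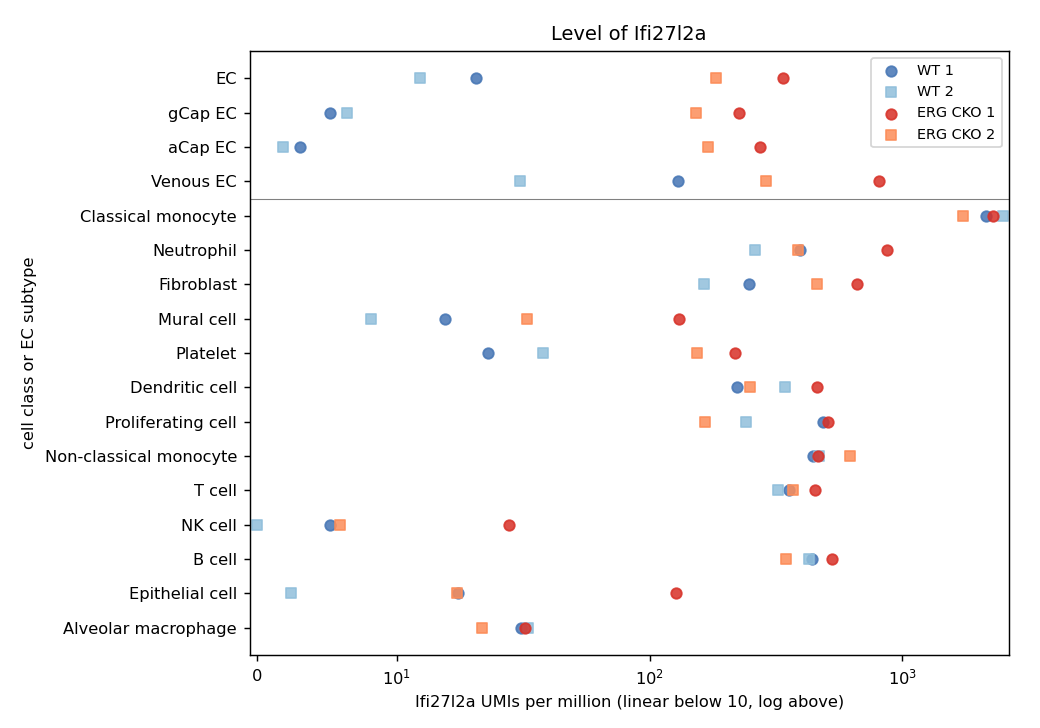
Ifi27l2a in UMIs per 1000000 of all UMIs of the population, by cell population and library, on an axis that is linear below 10 and logarithmic above. Every EC population shown has both ERG CKO points above both WT points, whereas classical monocytes, at 1748 to 2517, stand highest and do not separate by genotype.

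Outside ECs the level of Ifi27l2a differed widely between cell types. Classical monocytes stood highest, at 2157 and 2517 CPM in WT and 2287 and 1748 CPM in ERG CKO. Non-classical monocytes followed at 442 and 469 CPM in WT and 464 and 623 CPM in ERG CKO, and all 4 of their libraries lay below all 4 of classical monocytes. B cells lay at 441 and 426 CPM in WT and 528 and 347 CPM in ERG CKO, and T cells at 358 and 322 CPM in WT and 453 and 369 CPM in ERG CKO. These neighbours in order overlapped. Alveolar macrophages were low, at 30.8 and 33.0 CPM in WT and 32.1 and 21.7 CPM in ERG CKO. NK cells were lowest, at 5.21 and 0 CPM in WT and 27.8 and 5.95 CPM in ERG CKO. With ERG CKO ECs at 336 and 182 CPM, replicate 1 lay within the range of T cells, replicate 2 lay below every T cell library, and both lay below every library of B cells and of classical monocytes.

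Shares of cells gave the same picture after thinning to 1000 UMIs. An Ifi27l2a UMI was present in 0.701% and 0.731% of the WT ECs, against 18.1% and 8.48% of the ERG CKO ECs. Without thinning the WT shares were 4.01% and 2.75% and the ERG CKO shares 37.9% and 19.6%, at median depths of 4224 and 4020 UMIs in WT and 5462 and 4611 UMIs in ERG CKO. NK cells, the class of lowest level, served as a background for free RNA. After thinning 1.28% of those from ERG CKO replicate 1 had such a UMI, and 0% in every other library, at median depths of 4327 to 4691 UMIs. Other classes of low level gave larger shares. Platelets had 4.35% and 0% (WT) against 15.4% and 14.8% (ERG CKO). Mural cells had 1.67% and 0% against 10.3% and 12.5%, the last from 8 cells. Epithelial cells had 0% in both WT libraries against 11.6% and 0%. Alveolar macrophages showed no rise, with 3.14% and 4.65% against 3.09% and 1.55%. The part of free RNA in these shares was not tested.

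Fibroblasts gave the only call outside ECs. Over 13 other classes, 341 member and class pairs passed the low-count filter, and 1 was called higher and 0 lower, against 0.116% and 0.0637% of all gene and class pairs. DESeq2 gave the same counts, and at an unadjusted p under 0.05 there were 21 pairs higher and 21 lower by edgeR. Ifi27l2a in fibroblasts had 247 and 164 CPM in WT and 666 and 461 CPM in ERG CKO, without overlap (log2 fold change 1.46, SE 0.25, adjusted p = 0.00411), and edgeR called 0.67% of fibroblast genes higher. The call was lost after thinning (adjusted p = 0.145), without WT replicate 2 (0.958) and without ERG CKO replicate 1 (0.0507). The change in fibroblasts was smaller than that in ECs by 2.48 log2 units (SE 0.23, adjusted p = 0.000181).

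Mural cells, platelets and epithelial cells had higher Ifi27l2a in both ERG CKO libraries or nearly so, with no call. Mural cells had 15.5 and 8.12 CPM in WT and 130 and 32.8 CPM in ERG CKO. Platelets had 22.9 and 37.9 CPM in WT and 219 and 155 CPM in ERG CKO (log2 fold change 2.61, adjusted p = 0.347). Epithelial cells had 17.5 and 2.47 CPM in WT and 127 and 17.4 CPM in ERG CKO, and replicate 2 of ERG CKO lay within the WT range. In neutrophils it stood at 393 and 262 CPM in WT and 875 and 388 CPM in ERG CKO, with overlap.

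A test of the difference between the change in ECs and in another class was run for 555 member and class pairs, of which 32 were called, against 1.09% of all gene and class pairs. In 6 of the 32 the member had failed the low-count filter in the other class, and these are not read further. Of the other 26, 9 concerned Ifi27l2a, whose change was smaller than in ECs by 2.48 (fibroblasts) to 4.17 log2 units (classical monocytes and proliferating cells). In T cells, where its own log2 fold change was 0.29 (adjusted p = 1.0), the difference was -3.65 (SE 0.24, adjusted p = 7.48e-08). With DESeq2 all 9 differences of Ifi27l2a were called and, of the other members' pairs that DESeq2 gave an adjusted p, 1 of 16 (Iigp1 in proliferating cells). DESeq2 called 12 pairs in all and edgeR called 10 after thinning, so differences outside Ifi27l2a depended on the tool.

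Several members with negative values in ECs had positive values in lymphocytes and dendritic cells. Gbp2 in T cells had 21.4 and 32.4 CPM in WT and 45.2 and 35.2 CPM in ERG CKO, and its change differed from that in ECs by 1.38 (SE 0.22, adjusted p = 0.00337). Ifi47 in T cells had 70.9 and 94.0 CPM in WT and 126 and 114 CPM in ERG CKO, a difference of 1.13 (SE 0.18, adjusted p = 0.00229). Tap1 in NK cells had 76.4 and 62.7 CPM in WT and 162 and 103 CPM in ERG CKO, a difference of 1.54 (SE 0.31, adjusted p = 0.00042). In these 3 pairs the groups did not overlap in the other class, and no change within it was itself called. Isg15 in NK cells had 34.7 and 27.9 CPM in WT and 36.2 and 85.3 CPM in ERG CKO, a difference of 1.68 (SE 0.39, adjusted p = 0.0058), and rested on 8 to 43 UMIs per library. Isg15 differed also in dendritic cells (2.01) and non-classical monocytes (1.62), where it had 4 to 92 UMIs per library and overlapping groups. Ifit3 in B cells ran the other way, with 11.7 and 20.8 CPM in WT and 1.38 and 3.14 CPM in ERG CKO and a difference of -3.47 (SE 0.61, adjusted p = 6.18e-06). Several of these differences were lost under single alternatives. DESeq2 gave an adjusted p of 0.186 for Gbp2 and 0.0695 for Ifi47 in T cells and of 1.0 for Tap1 in NK cells and Ifit3 in B cells. After thinning Gbp2 in T cells stood at 0.751. Without WT replicate 2 the adjusted p was 0.0921 for Tap1 in NK cells and 0.213 for Ifit3 in B cells, and without ERG CKO replicate 1 it was 0.424 for Ifit3. Isg15 in NK cells had an adjusted p of 0.114 and 0.312 without WT replicates 1 and 2 and of 0.997 without ERG CKO replicate 2, where the difference was 0.54. Isg15 in dendritic cells was lost without WT replicate 2 (0.455) and without ERG CKO replicate 1 (0.948). In non-classical monocytes it was lost without WT replicates 1 and 2 (0.149 and 0.910), and without ERG CKO replicate 2 its difference was -0.35 (0.932).

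In NK cells both ERG CKO libraries lay above both WT libraries in 10 of 20 members tested, against 17.7% of all genes, with a summed level of 1510 and 1864 CPM in WT and 2186 and 2060 CPM in ERG CKO. In epithelial cells it was 14 of 30 members, against 43.1% of all genes, and median depth there was 18045 and 20739 UMIs in WT and 2670 and 741 UMIs in ERG CKO. No member was called in either class by edgeR, with 4 and 7 members at an unadjusted p under 0.05.

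**Figure D5:**
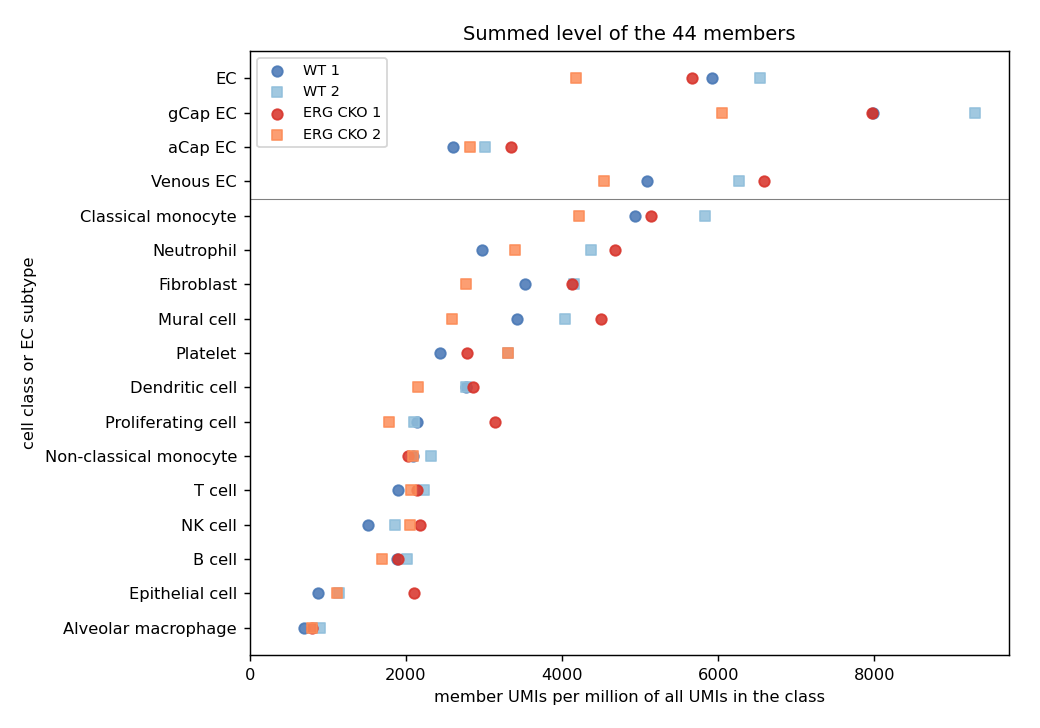
Summed level of the 44 ISGs in UMIs per 1000000 of all UMIs of the population, by cell class, EC subtype and library. ECs, at 4180 to 6529, and classical monocytes, at 4217 to 5827, hold the highest sums of the classes and alveolar macrophages, at 703 to 903, the lowest.

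Across the lung, ECs and classical monocytes had the highest summed levels. ECs had 5920 and 6529 CPM in WT and 5661 and 4180 CPM in ERG CKO, classical monocytes 4937 and 5827 CPM in WT and 5142 and 4217 CPM in ERG CKO, and the 2 classes overlapped. Neutrophils followed at 2981 to 4684 CPM and fibroblasts at 2768 to 4149 CPM, and alveolar macrophages were lowest at 703 to 903 CPM. ECs held the highest mean level of 17 of the 44 members, among them 5 of the 6 IRG genes, but in none of the 17 did all 4 EC libraries lie above all libraries of the next class. Neutrophils held the highest level of 10 members, and in 6 of these (Isg15, Oasl1, Oasl2, Rsad2, Isg20 and Trim30a) their libraries lay apart from the next class. Isg15 in neutrophils had 516 and 579 CPM in WT and 617 and 610 CPM in ERG CKO. Classical monocytes stood apart for Ifi27l2a, Oas1a and Irf7, and platelets for Igtp, at a mean of 440 CPM against 97.9 CPM in ECs. These are UMI totals of a library preparation that was not corrected for transcript length. Levels were compared between cell types for 1 gene at a time, and where members are ranked by level, the ranking is of UMIs alone.

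The wider pathway was read in ECs from 118 further genes, of which 93 had a row in the matrix and 80 were tested. Of these, 1 was called higher and 0 lower by edgeR, and 19 had an unadjusted p under 0.05. The gene called was Ifi204, a DNA-binding protein of the interferon-inducible p200 family, at 6.70 and 6.95 CPM in WT and 24.3 and 25.2 CPM in ERG CKO (log2 fold change 1.81, SE 0.23, adjusted p = 0.0128). With either WT library left out it was not called, and the number of pathway genes called moved with single libraries.

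Of 21 interferon genes listed 3 were in the matrix, and none passed the filter. Ifng, which encodes interferon gamma, had 1 to 3 UMIs per library in ECs and was found chiefly in NK cells, at 113 and 195 CPM in WT and 170 and 193 CPM in ERG CKO, and in T cells, at 20.8 and 105 CPM in WT and 29.4 and 36.2 CPM in ERG CKO. It overlapped between groups in both. No receptor chain was called in ECs, but Ifnar2 did not overlap, at 122 and 125 CPM in WT and 106 and 110 CPM in ERG CKO. Ifnar1 had 67.3 and 70.1 CPM in WT and 60.9 and 68.2 CPM in ERG CKO, and the log2 fold changes of Ifnar2, Ifngr1 and Ifngr2 were -0.23, 0.06 and 0.01. The kinases Jak1, Jak2 and Tyk2 had log2 fold changes of -0.16, 0.15 and -0.32. None of the 17 receptor and signalling genes tested was called, and 2 had an unadjusted p under 0.05.

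The interferon-induced chemokines, which draw CXCR3-bearing T and NK cells, had high values in ERG CKO ECs and a wide spread. Cxcl9 had 0 and 9 UMIs in WT and 188 and 24 UMIs in ERG CKO (log2 fold change 4.05, SE 0.99, adjusted p = 0.0829). Cxcl10 had 23.8 and 76.1 CPM in WT and 165 and 84.9 CPM in ERG CKO (log2 fold change 1.28, SE 0.48, adjusted p = 0.236). In both genes ERG CKO replicate 1 was the highest library, and neither passed the test.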

How the data were processed

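Whole-lung cells of 4 mice (2 WT, 2 ERG CKO) were profiled with 1 droplet library per mouse. The authors deposited raw UMI counts per gene and cell, not normalized, as 1 matrix of 20076 gene rows and 9363 cells with no unused value column. Cell Ranger 3.1.0 and build mm10 are named in the submitters' processing notes, and alignment settings are not given in the sources used here. The study kept fewer cells after a filter whose limits are not given, so all cells were kept here, among them 913 under 1000 UMIs. Groups came from the sample labels. The 44 members and the gene lists were chosen with earlier results of these data known.

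Cells were clustered with Seurat 5.3.0 (2000 variable genes without the members, the pathway genes, Erg, Xist and Y-linked genes, alignment of the libraries by canonical correlation, 30 dimensions and resolution 0.8, then 20 dimensions and resolution 0.6 within ECs). No deposited cell annotation was used. A cluster was named from at least 3 markers, each detected in at least 10% of its cells and with a log2 fold over the other cells of at least 1 (classes) or above 0 (EC subtypes), and was left unnamed where its leading genes marked another type. These limits were set after the data had been seen, so shares of named cells may differ from the study's. Doublets were called with Scrublet in scanpy 1.11.5 (Python 3.11.15) and kept.

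UMI counts were summed per mouse and population with at least 10 cells in each library. They were tested in R 4.3.3 with edgeR 4.0.16 (limma 3.58.1; TMM, filterByExpr, quasi-likelihood test, Benjamini-Hochberg adjustment over all genes tested, with calls where the adjusted p did not exceed 0.05). The standard error (SE) was the absolute log2 fold change divided by the square root of its F statistic. Differences between populations were tested as an interaction with the mouse as a term. Sums and shares over members were given without a test. With 2 mice per group, p-values measure the spread between these samples. Levels are CPM of the summed UMIs. Cells were thinned to 1000 UMIs where shares were compared. Intervals (95%, exact) and the floor of 3 counts cover counting error only. Both the count tests and the interaction test were tested on simulated data.

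Genes were named by rule, namely every member by its group, full statistics for members called in ECs or in at least 2 classes, library values for these and for the 5 members of highest level in ECs, at most 5 per other test, every pathway gene called, and Ifng, its receptors, the JAK kinases, Cxcl9 and Cxcl10 in any case, apart from 1 gene of the rule that is not reported here. Other genes given with values were chosen after their values were seen. Alternatives were DESeq2 1.42.0, size factors in place of TMM, no low-count filter, no called doublets, at most 10% mitochondrial UMIs, resolutions 0.4 and 1.2, a marker fold of at least 0.5 for EC subtypes, no alignment, thinned cells, the replicate number as a block and each library left out. Promoter sequences came from RefSeq, build GRCm38.p6.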

Additional observations from a re-analysis of the deposited data

Results flagged for a closer look

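The change between WT and ERG CKO differed between cell populations for 29 pairs of a member and a population, each by edgeR's interaction test with the mouse as a term. Differences are given in log2 units, as the change in the named class minus the change in ECs.

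Ifi27l2a changed less than in ECs in 9 classes. The difference was -4.17 in classical monocytes, -4.17 in proliferating cells, -4.15 in alveolar macrophages, -3.88 in B cells, -3.73 in non-classical monocytes, -3.65 in T cells, -3.48 in dendritic cells, -2.92 in neutrophils and -2.48 in fibroblasts.

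For several GTPase members the difference was above 0. For Gbp2 the difference was 1.38 in T cells, 1.66 in B cells, 2.14 in epithelial cells and 2.03 in mural cells. In B cells and mural cells its sign turned under some alternatives, as given below. Gbp2 in B cells had 13.2 and 10.9 CPM in WT and 12.5 and 33.5 CPM in ERG CKO, so that 1 library alone was high. In mural cells it had 67.6 and 97.4 CPM in WT and 280 and 32.8 CPM in ERG CKO, and the 2 ERG CKO libraries lay on either side of WT. In epithelial cells, whose depth differed between groups as given above, it had 8.28 and 13.6 CPM in WT and 52.3 and 14.5 CPM in ERG CKO. Gbp7 in epithelial cells differed by 1.75, with 15.6 and 17.3 CPM in WT and 60.8 and 34.7 CPM in ERG CKO. Ifi47 in T cells differed by 1.13.

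Iigp1 differed by 2.35 in proliferating cells, where it had 38 and 13 UMIs in WT and 152 and 10 UMIs in ERG CKO. In non-classical monocytes it differed by -2.06 and had 7 and 36 UMIs in WT and 7 and 1 UMIs in ERG CKO. In both classes 1 library held most of the UMIs.

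Isg15 differed by 1.68 in NK cells, 2.01 in dendritic cells and 1.62 in non-classical monocytes, and Ifit3 by -3.47 in B cells. Tap1 differed by 1.54 in NK cells and by 0.85 in B cells, where it had 84.9 and 101.1 CPM in WT and 107 and 97.4 CPM in ERG CKO. Irf1 differed by 0.999 in dendritic cells, where it had 100.4 and 129 CPM in WT and 126 and 154 CPM in ERG CKO. Zbp1, with a log2 fold change of 1.01 in ECs that did not pass the test, differed by -1.17 in non-classical monocytes, with 118 and 105 CPM in WT and 92.7 and 111 CPM in ERG CKO. In proliferating cells it differed by -2.13, with 20 UMIs in each WT library and 14 and 4 UMIs in ERG CKO. The groups overlapped for Tap1 in B cells, Irf1 in dendritic cells and Zbp1 in non-classical monocytes.

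Between EC subtypes the difference was taken as the change in aCap ECs minus the change in gCap ECs. It was 1.77 for Gm4951, 1.33 for Ifi47 and 1.33 for Irgm1.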

How the results depend on the processing

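Counts of calls moved with the filter, the tool and the libraries used. Without a filter on low counts, 4 members were called higher and 15 lower in ECs (1 and 2 with the filter), 2 and 7 in gCap ECs (1 and 2), 11 and 7 member and class pairs outside ECs (1 and 0), 8 pathway genes (1) and 1176 genes in all (322). After thinning to 1000 UMIs, 4 members were called lower in ECs, 1 was called lower in gCap ECs, 0 pairs outside ECs were called higher, 10 pairs differed from ECs (32) and 165 genes were called in all. DESeq2 called 1 member lower in gCap ECs and 12 pairs that differed from ECs. At resolution 1.2 gCap ECs had 1 member called lower and without alignment 0, and without alignment 2 pathway genes were called. Without called doublets 1 pair was called lower outside ECs. The cause of these shifts was not tested.

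With each library left out in turn, the members called in ECs ranged from 1 to 5 higher and from 0 to 18 lower, those in gCap ECs from 1 to 5 higher and from 2 to 10 lower, pairs outside ECs from 1 to 10 higher and from 1 to 5 lower, pairs that differed from ECs from 24 to 41, pathway genes from 0 to 6 and all genes called in ECs from 22 to 760. The log2 ratio of the summed member level in ECs (-0.34) and the share of ECs with at least 5 member UMIs (a difference of -11.4 percentage points) kept their sign, within the spread between libraries, but depended on the ERG CKO libraries. They were -0.57 and -19.1 points without ERG CKO replicate 1 and -0.14 and -3.72 points without ERG CKO replicate 2, and the ratio was -0.21 with each EC cluster weighted by its share.

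The labels number the replicates 1 and 2 in both groups without saying that a number marks a shared litter, batch or day. The difference between replicates 1 and 2 correlated between WT and ERG CKO ECs at 0.184 over 10686 genes, which share 4 libraries, and the numbers also follow Xist and Ddx3y. With the replicate number as a block, 3 members were called higher (Zbp1, Oas1a and Ifi27l2a) and 16 lower in ECs, 2 higher and 11 lower in gCap ECs, 3 pairs higher and 3 lower outside ECs, 11 pathway genes and 1251 genes in all. The 16 were Irgm1, Igtp, Irgm2, Ifi47, Gm4951, Iigp1, Gbp2, Gbp4, Gbp7, Isg15, Irf1, Irf9, Stat2, Socs1, Psmb9 and Tap1.

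Single members kept their side of the threshold and their direction in 913 of 1113 refits, while 116 lost the call, 55 gained one and 29 changed sign. Leaving out a library turned the sign of 16 members in ECs. Their log2 fold changes ranged from -0.37 to 0.87 for Ifit3, -0.29 to 0.345 for Ifit3b, -0.32 to 0.43 for Usp18, -0.22 to 0.55 for Oasl1, -0.55 to 0.22 for Oasl2, -0.28 to 0.0617 for Cmpk2, -0.13 to 0.20 for Isg20, -0.20 to 0.0369 for Bst2, -0.18 to 1.03 for Ifi44, -0.17 to 0.0449 for Ifi35, -0.10 to 0.17 for Trim30a, -0.15 to 0.0363 for Ifih1, -0.0014 to 0.29 for Ddx58, -0.49 to 0.0524 for Gbp3, -0.83 to 0.11 for Gbp6 and -0.16 to 0.55 for Irf7. Isg20 in ECs stood at -0.0248 without called doublets, -0.0493 after thinning and -0.0835 without EC clusters 4, 7 and 10. Of the differences from ECs, Gbp2 in mural cells ranged from -0.67 to 2.33 with a library left out and stood at -1.18 and -1.17 at resolutions 0.4 and 1.2 and at -1.15 without alignment. Isg15 in non-classical monocytes ranged from -0.35 to 2.92. After thinning Gbp2 in B cells stood at -0.48 and Zbp1 in proliferating cells at 6.19, and without called doublets Iigp1 in non-classical monocytes stood at 1.66.

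The alternatives without EC clusters 4, 7 and 10, with each EC cluster weighted by its share of all ECs, and all those of aCap ECs were chosen after seeing the data. aCap ECs could not be tested without alignment. With 2 mice per group, members of a few UMIs per library, such as Mx1, and the arterial and lymphatic ECs lay below what these libraries can resolve.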

Other observations

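Antigen presentation genes outside the member list were measured in ECs at high level. Of 9 genes of MHC class I presentation tested, edgeR called 0 and 2 had an unadjusted p under 0.05, with a median log2 fold change of -0.23. Psmb10, the third catalytic subunit of the immunoproteasome, had 234 and 273 CPM in WT and 201 and 193 CPM in ERG CKO (log2 fold change -0.40, adjusted p = 0.171). Tap2, the partner of Tap1, had 161 and 167 CPM in WT and 116 and 144 CPM in ERG CKO (log2 fold change -0.38, adjusted p = 0.207). B2m, the light chain of class I, overlapped between groups at 2622 and 3154 CPM in WT and 2865 and 2450 CPM in ERG CKO. Among 12 genes of nucleic acid sensing tested, 0 were called and 3 had an unadjusted p under 0.05. Tmem173, which encodes STING, had 7.44 and 6.0 CPM in WT and 14.2 and 10.8 CPM in ERG CKO (log2 fold change 0.88, adjusted p = 0.202), and Mb21d1, which encodes cGAS, had 22.7 and 24 CPM in WT and 16.7 and 5.56 CPM in ERG CKO (log2 fold change -1.01, adjusted p = 0.269). These genes were chosen after their values were seen.

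Cxcl9 and Cxcl10 had most of their UMIs in single libraries, which differed between classes. In mural cells Cxcl9 had 0 UMIs in each WT library and 127 and 0 UMIs in ERG CKO, and Cxcl10 had 2 and 3 UMIs in WT and 144 and 0 UMIs in ERG CKO. In dendritic cells Cxcl9 had 1 UMI in each WT library and 184 and 0 UMIs in ERG CKO. In fibroblasts, however, Cxcl10 was highest in WT replicate 2, with 41 and 179 UMIs in WT and 140 and 2 UMIs in ERG CKO. In interstitial macrophages Cxcl9 was also highest there, with 0 and 37 UMIs in WT and 7 and 16 UMIs in ERG CKO. The classes named were chosen after their values were seen.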
